A study of Mus musculus with 16 samples.

Results

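The 10 genes described here, Fos, Fosb, Junb, Egr1, Egr2, Egr3, Egr4, Arc, Npas4 and Nr4a1, are immediate-early genes that neurons switch on after activity. They were chosen by name, and all 10 were found by symbol among the 20841 genes of the deposited expression table. Its label says that it lacks X and Y, so shares of all genes refer to the genes it holds. PolyA RNA from the cortex of the right hemisphere was sequenced in 4 groups of 4 libraries: control mice and mice with a conditional knockout (cKO) of Foxp1 in the forebrain, each on the day of birth (P0) and at postnatal day 7 (P7). Foxp1 encodes a forkhead transcription factor. The cKO groups carry a deletion restricted to the forebrain, and the controls of each age are labelled control only; the labels do not state the floxed allele, the Cre line, the strain or the sex of the mice. The labels do not say that each library came from a separate animal, so p-values measure only the spread between these libraries, which may be technical. P0 libraries were made and sequenced at BGI (BGISEQ-500, single-end reads) and P7 libraries at UT Southwestern Medical Center (Illumina NextSeq 500, single-end reads), so age and sequencing centre cannot be told apart.

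Immediate-early genes are transcribed within minutes of calcium entry or growth factor signalling, without new protein synthesis. Calcium and kinase signals reach them through CREB, which binds the cyclic AMP response element, and through serum response factor, which binds the CArG box. Most encode transcription factors that act on later genes: Fos, Fosb and Junb are subunits of the AP-1 dimer, Egr1 to Egr4 are zinc finger factors, Npas4 is a bHLH-PAS factor and Nr4a1 an orphan nuclear receptor, while Arc acts at the synapse, where it takes part in the removal of AMPA receptors. In the brain their RNA is short-lived and is widely used as a mark of recently active neurons.

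RefSeq (GRCm38.p6) promoter windows, running from 250 bases before to 50 bases after an annotated start, were at hand for 7 of the 10 genes (11 windows, of which 5 belong to Egr2). Windows for Egr1, Egr3 and Arc were not used here. The core of the cyclic AMP response element, TGACG on either strand, was in at least 1 window of 7 of these 7 genes and in 9 of their 11 windows, against 20.8% of all 32841 windows. The CArG box was found in Egr2 (4 of its windows; 1.63% of all windows), the EGR site GCGNGGGCG in Fosb and Nr4a1 (5.55%), and the forkhead site TGTTTAC in Junb (3.65%). The full palindrome TGACGTCA, which contains the TGACG core (1.79% of all windows), and the AP-1 site TGANTCA (7.81%) had no match in these 11 windows. The Egr2 windows that start at 67537619, 67537620 and 67537680 on chromosome 10 overlap and repeat the same cores and CArG box. Windows are therefore not separate counts, and the percentages are shares of windows and not of genes. A match is a string of letters and not a site shown to be used. The 250 bases before the start are shown for Fos, the usual reporter of the group. They are also shown for Junb and Nr4a1, whose levels fell between the ages. Egr2 is shown because it had the largest genotype log2 fold change (of CPM plus 1) among the 9 genes tested at P7. Capitals mark TGACG or its complement CGTCA, the CArG box of Egr2 and TGTTTAC in Junb. The stretches, each 5′ to 3′ on the strand of its gene, are chr12:85473640-85473889 (plus strand) for Fos, chr8:84978749-84978998 (minus strand) for Junb, chr10:67537619-67537868 (plus strand) for Egr2 and chr15:101266596-101266845 (plus strand) for Nr4a1.
Fos: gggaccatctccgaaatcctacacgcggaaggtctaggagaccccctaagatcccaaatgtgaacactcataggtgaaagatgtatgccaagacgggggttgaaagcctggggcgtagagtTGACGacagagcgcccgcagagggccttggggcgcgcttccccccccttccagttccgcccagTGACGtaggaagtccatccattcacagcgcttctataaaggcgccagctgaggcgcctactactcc
Junb: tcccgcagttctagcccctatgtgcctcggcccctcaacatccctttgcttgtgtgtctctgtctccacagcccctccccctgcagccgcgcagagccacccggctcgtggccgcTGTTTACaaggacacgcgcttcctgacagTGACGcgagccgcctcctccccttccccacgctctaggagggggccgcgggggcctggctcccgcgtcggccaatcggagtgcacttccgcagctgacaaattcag
Egr2: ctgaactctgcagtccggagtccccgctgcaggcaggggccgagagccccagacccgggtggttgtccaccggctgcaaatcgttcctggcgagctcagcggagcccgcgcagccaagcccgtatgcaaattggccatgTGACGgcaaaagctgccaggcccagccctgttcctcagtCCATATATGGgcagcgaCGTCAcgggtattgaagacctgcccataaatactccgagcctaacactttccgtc
Nr4a1: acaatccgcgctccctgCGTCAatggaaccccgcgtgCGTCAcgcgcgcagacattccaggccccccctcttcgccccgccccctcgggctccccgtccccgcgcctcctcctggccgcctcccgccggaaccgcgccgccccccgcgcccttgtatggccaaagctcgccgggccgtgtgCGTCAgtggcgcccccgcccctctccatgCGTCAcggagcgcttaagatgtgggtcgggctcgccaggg
The core lay on the gene's own strand 129 and 66 bases before the start in Fos and 106 bases before it in Junb. In Egr2 the CArG box began 72 bases before the start, between cores at 111 and 55 bases. In Nr4a1 the core was read 4 times on the opposite strand, from 233 to 40 bases before the start.

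**Figure D1:**
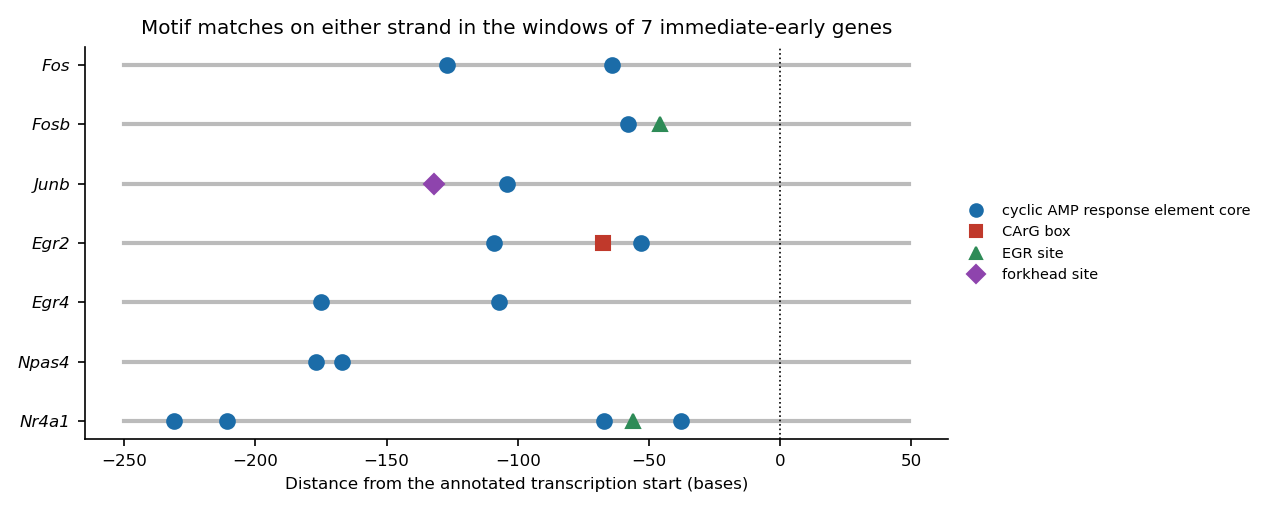
Positions of motif matches along the RefSeq windows of 7 immediate-early genes, by distance from the annotated start in bases (1 window per gene; for Egr2 the one printed). Circles are TGACG cores, the square the CArG box, triangles the EGR site and the diamond the forkhead site; every gene drawn has at least 1 circle.

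The deposited values were CPM (read counts scaled to the library total), and whole reads could be recovered from them: each P0 library held 17957490 to 18232943 reads and each P7 library 9858296 to 15335738. A read was thus worth 0.0548 to 0.0557 CPM at P0 and 0.0652 to 0.101 at P7, and a count of 0 leaves room for up to 3 reads (0.165 to 0.167 CPM at P0, 0.196 to 0.304 at P7), which covers counting error alone. Foxp1 lay between 273 and 364 CPM in the P0 controls and between 131 and 182 in the P0 cKO libraries, and between 375 and 539 CPM in the P7 controls and 162 and 246 in the P7 cKO libraries. At P0 the first principal component (46.5% of the variance) set control libraries 2 and 6 (scores 38.1 and 19.5) apart from the other 6 libraries (-17.9 to -0.443), so results that rest on this pair are given with and without it. Defining markers of cortical excitatory neurons were all 8 present in every group, and choroid plexus markers summed to at most 5.09 CPM in any library. Genes marking the neighbouring striatum summed to 137 to 459 CPM over the 16 libraries. Astrocyte and oligodendrocyte lineage markers (8 genes each) summed to 465 to 581 and 203 to 279 CPM in P0 controls, and to 560.2 to 632 and 268 to 299 CPM in P0 cKO libraries; their part in the P0 results was not tested.

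The genes stood at low levels, and Egr1 and Nr4a1 led at both ages. Levels of different genes are compared as CPM per kilobase of annotated exon. In P0 controls Nr4a1 had 4.57 ± 1.44, Egr1 3.96 ± 1.65, Junb 2.17 ± 1.35 and Fos 1.001 ± 0.579 CPM per kilobase (SD, n = 4). Arc, Npas4, Egr3 and Egr2 followed between 0.556 and 0.386, then Egr4 at 0.161 and Fosb at 0.0777 ± 0.0559 CPM per kilobase. Each neighbouring pair in this order overlapped between the libraries of the P0 controls. In the P0 cKO group the order opened with Egr1 at 6.75 ± 1.24, Nr4a1 at 3.98 ± 0.757 and Junb at 1.72 ± 0.0627 CPM per kilobase, and the libraries of these neighbours did not overlap. In P7 controls Egr1 stood clear of the rest at 4.32 ± 0.325 CPM per kilobase, followed by Nr4a1 at 1.34 ± 0.394 and Egr3 at 0.969 ± 0.136, whose libraries overlapped. Fosb was last in all 4 groups, with 0 reads in P7 control libraries 43 and 47, which allows up to 3 reads each. The P7 cKO order opened in the same way, with Egr1 at 3.99 ± 0.706, Nr4a1 at 1.48 ± 0.198 and Egr3 at 1.23 ± 0.483 CPM per kilobase.

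**Figure D2:**
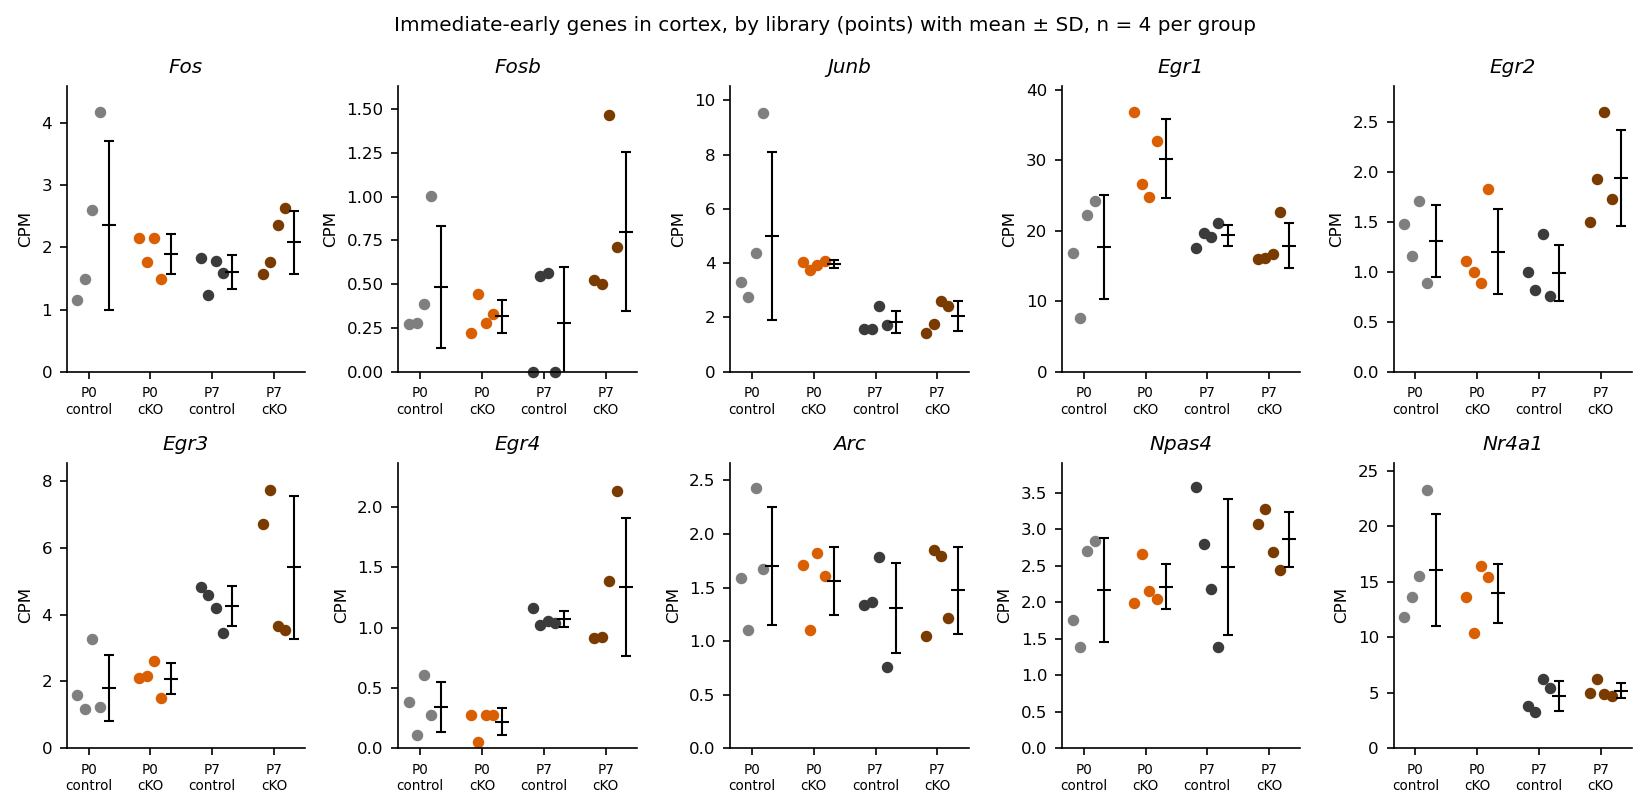
CPM of the 10 immediate-early genes in each library (points) with the group mean ± SD (n = 4), on axes that start at 0. Egr1 is higher in every P0 cKO library (24.7 to 36.8 CPM) than in every P0 control library (7.70 to 24.2 CPM), and Egr2 in every P7 cKO library than in every P7 control library.

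The first comparison asks whether activity-induced genes differ in newborn cortex of mice with the forebrain deletion of Foxp1. Foxp1 RNA was lower there but not absent (ratio of mean CPM 0.493). Of the 10 genes 8 entered the limma test at P0 (log2 of CPM plus 1; at least 1 CPM in at least 4 of the 8 libraries), and 0 passed an adjusted p of 0.05, where 32 of 12580 genes tested (0.254%) did. At an unadjusted p under 0.05 stood 1 of the 8, against 18.1% of all genes tested. edgeR and DESeq2 on the recovered reads also called 0 of them. The groups did not overlap for 1 gene, Egr1, against 9.86% of all genes tested. Of the 8 log2 fold changes 3 were positive and 5 negative, with a median of -0.07, beside 0.01 over all genes.

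Among the EGR factors, Egr1 (chromosome 18, 34859823 to 34864984), a zinc finger factor that follows most forms of neuronal stimulation, had the largest difference. Control libraries 1, 2, 5 and 6 read 16.8, 7.70, 22.3 and 24.2 CPM. The cKO libraries 3, 4, 7 and 8 read 36.8, 26.6, 24.7 and 32.8 CPM. The lowest cKO library stood just above the highest control library. The means were 17.8 ± 7.40 and 30.2 ± 5.57 CPM (SD, n = 4), a ratio of 1.70 and a log2 fold change of 0.83 (SE 0.27, 95% interval 0.24 to 1.42, limma adjusted p = 0.177, unadjusted p = 0.00962). Without control library 2, the lowest, the log2 fold change was 0.50, and without control libraries 2 and 6 together it was 0.60 (limma adjusted p = 0.0926). In 1 limma fit over all 16 libraries the same difference had an adjusted p of 0.0384; over all alternatives the adjusted p ran from 0.0384 to 0.465.

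The other EGR genes overlapped between the genotypes at P0. Egr2 (chromosome 10, 67535475 to 67542188), known for hindbrain patterning and for myelination by Schwann cells as well as for its response to activity, read 1.48, 1.16, 1.71 and 0.891 CPM in the controls, and 1.11, 0.997, 0.886 and 1.83 in cKO cortex, in the order above. Egr3 (chromosome 14, 70077203 to 70082614), a related factor that also acts in muscle spindles, ranged from 1.16 to 3.26 CPM in controls and from 1.49 to 2.60 in cKO libraries. Their log2 fold changes were -0.07 (95% interval -0.45 to 0.31) and 0.18 (-0.28 to 0.65). Egr4 (chromosome 6, 85511121 to 85513589), the least abundant of the family at P0, failed the filter. It had 2 to 11 reads per control library and 1 to 5 reads per cKO library, with means of 0.345 ± 0.208 and 0.221 ± 0.111 CPM (SD, n = 4, exact two-sided permutation p = 0.314 over 70 assignments, which allow no p below 0.0286).

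The AP-1 genes did not separate the genotypes at P0, and their controls were spread more widely than their cKO libraries. Fos (chromosome 12, 85473890 to 85477273) read 1.15, 1.49, 2.60 and 4.18 CPM in controls 1, 2, 5 and 6, and 2.16, 1.77, 2.16 and 1.49 with the knockout (3, 4, 7 and 8). Junb (chromosome 8, 84974484 to 84978718, of whose body 8.29% is shared with Prdx2 on the opposite strand) read 3.29, 2.77, 4.37 and 9.52 CPM in controls, and 4.03, 3.76, 3.93 and 4.09 with the knockout. In both genes control library 6 was the highest of the 8, and the cKO libraries lay inside the control range. The log2 fold changes were -0.13 for Fos (95% interval -0.65 to 0.38) and -0.15 for Junb (-0.71 to 0.41). Without control libraries 2 and 6 both turned to 0.05. Fosb (chromosome 7, 19302696 to 19310051), whose long-lived splice product builds up with repeated activity, failed the filter with 5 to 18 reads per control library and 4 to 8 per cKO library (0.485 ± 0.349 and 0.318 ± 0.0947 CPM, SD, n = 4, exact two-sided permutation p = 0.6).

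Arc, Npas4 and Nr4a1 also overlapped between the genotypes at P0. Arc (chromosome 15, 74669083 to 74672570) ranged from 1.11 to 2.43 CPM in controls and from 1.11 to 1.83 in cKO libraries, a log2 fold change of -0.06 (95% interval -0.44 to 0.32). Npas4 (chromosome 19, 4984355 to 4990316), which responds to calcium entry and shapes inhibitory synapses, ranged from 1.38 to 2.84 and from 1.99 to 2.66 CPM, with a fold change of 0.04 on the log2 scale (-0.34 to 0.43). Nr4a1 (chromosome 15, 101254269 to 101274795) read 11.8, 13.6, 15.5 and 23.3 CPM in controls, and 13.7, 10.4, 16.4 and 15.4 with the knockout, a log2 fold change of -0.16 (-0.59 to 0.27). Of these 3 intervals that of Nr4a1 is the widest, and a true change of any size inside it is compatible with these libraries.

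At P7 the same question was put to the older cortex. Of the 10 genes 9 were tested, all but Fosb, and 0 passed, where 477 of 12828 genes (3.72%) did; edgeR and DESeq2 called 0 of them as well. At an unadjusted p under 0.05 stood 1 of the 9, against 14.3% of all genes, and the groups did not overlap for 1 gene, Egr2, against 8.88% of all genes. Of the 9 log2 fold changes 8 were positive, with a median of 0.15, beside 60.6% positive and a median of 0.03 over all genes tested. Of 9 striatal marker genes 8 were positive as well, with a median of 0.45, and 0 passed. Their sum was 200.2 to 459 CPM in P7 controls, highest in library 43, and 224 to 382 CPM in P7 cKO libraries; its part was not tested.

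In the P7 controls 43, 45, 46 and 47 Egr2 read 0.9994, 0.820, 1.38 and 0.761 CPM. With the knockout (41, 42, 44 and 48) it read 1.4998, 1.93, 2.60 and 1.72 CPM. All 4 cKO libraries lay above all 4 controls, on 11 to 17 reads per control library and 17 to 32 per cKO library. The means were 0.989 ± 0.278 and 1.94 ± 0.476 CPM (SD, n = 4), a ratio of 1.96. On the log2 scale of CPM plus 1, which understates low genes, the fold change was 0.56 (SE 0.17, 95% interval 0.20 to 0.92, limma adjusted p = 0.0916, unadjusted p = 0.00447). The adjusted p ran from 0.0795 to 0.229 over the alternatives, so the difference passed under none of the settings run, edgeR (0.0932) and DESeq2 (0.133) included.

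The other EGR genes overlapped at P7. Egr1 read 17.6, 19.7, 19.1 and 21.1 CPM in controls, and 16.04, 16.2, 16.7 and 22.6 with the knockout, with 3 of the 4 cKO libraries below every control and library 48 above every control. Its log2 fold change was -0.12 (95% interval -0.36 to 0.12). Egr3 read 4.83, 4.58, 4.21 and 3.46 CPM in controls, and 6.72, 7.73, 3.66 and 3.55 with the knockout, so cKO libraries 41 and 42 lay above every other P7 library and 44 and 48 inside the control range. Its log2 fold change was 0.23 (-0.20 to 0.66). Egr4 lay between 1.02 and 1.17 CPM in controls and between 0.913 and 2.13 CPM in cKO libraries, a log2 fold change of 0.15 (-0.23 to 0.52).

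Of the AP-1 genes at P7, Fos read 1.83, 1.23, 1.78 and 1.59 CPM in controls, and 1.56, 1.76, 2.36 and 2.64 with the knockout, with the top pair of libraries both cKO. Junb ranged from 1.57 to 2.43 and from 1.43 to 2.60 CPM. Their log2 fold changes were 0.23 (95% interval -0.11 to 0.58) and 0.11 (-0.26 to 0.47). Fosb had 0, 8, 7 and 0 reads in the controls and 8, 6, 18 and 7 reads in the cKO libraries, means of 0.278 ± 0.322 and 0.800 ± 0.453 CPM (SD, n = 4, exact two-sided permutation p = 0.171). Arc ranged from 0.761 to 1.78 CPM in controls and from 1.04 to 1.85 in cKO libraries, Npas4 from 1.38 to 3.58 and from 2.43 to 3.28, and Nr4a1 from 3.28 to 6.24 and from 4.67 to 6.21. For these 3 the log2 fold changes were 0.10, 0.18 and 0.15, with 95% intervals of -0.28 to 0.49, -0.21 to 0.58 and -0.21 to 0.50. In bulk cortex fewer cells of a type and less RNA per cell cannot be told apart.

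**Figure D3:**
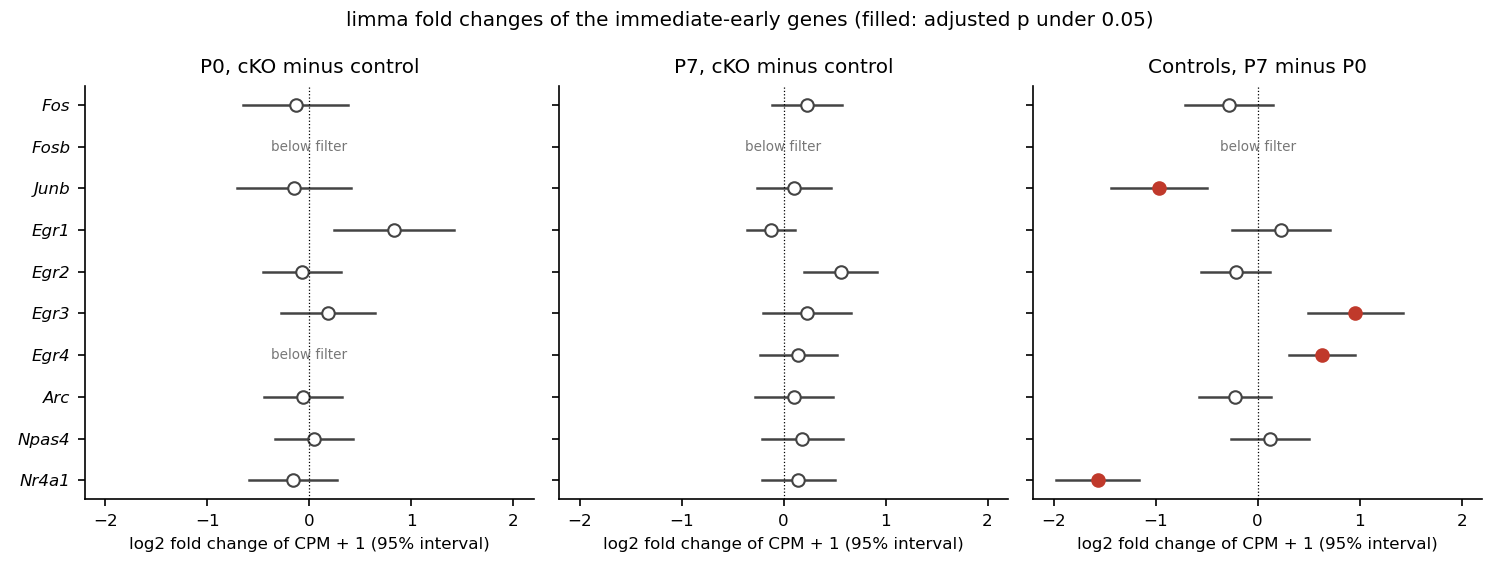
limma log2 fold changes of CPM plus 1 with 95% intervals for each immediate-early gene, for cKO minus control at P0 and at P7 and for P7 minus P0 controls. Filled points passed an adjusted p of 0.05, which 0 genes of the group did between genotypes and 4 did between ages; genes below the filter are marked so.

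Whether the genotype effect differed between the ages was tested directly in 1 fit over 16 libraries. Of 9 genes tested 0 passed, where 101 of 13444 genes (0.751%) did. With edgeR and with DESeq2 0 passed. At an unadjusted limma p under 0.05 stood 2 of the 9, Egr1 and Egr2, against 15.6% of all genes. For Egr1 the effect at P7 was lower than at P0 by -0.95 on the log2 scale (SE 0.32, 95% interval -1.63 to -0.27, limma adjusted p = 0.181). For Egr2 it was higher by 0.63 (SE 0.23, 95% interval 0.16 to 1.11, limma adjusted p = 0.204). Without P0 control libraries 2 and 6 these contrasts were -0.72 and 0.81 (limma adjusted p = 0.0902 and 0.115). The other 7 contrasts lay between 0.05 (Egr3) and 0.37 (Fos). For the striatal markers 9 of 9 contrasts were positive (median 1.23, 0 passed), and their part was not tested.

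The spread among P0 controls was the widest of the 4 groups for Fos, Junb, Egr1, Arc and Nr4a1. Set over the spread that read counting alone gives, as a ratio of variances, it was 56.0 for Egr1, 34.9 for Junb, 29.1 for Nr4a1 and 14.3 for Fos. Among all genes of 10 to 100 mean reads the median of this ratio was 2.90 in P0 controls and between 1.35 and 1.65 in the other groups. Egr1 and Nr4a1 have more reads than that range, which raises the ratio at a given relative spread. In the P0 cKO group the ratio was 18.5 for Egr1, 9.07 for Nr4a1, 0.993 for Fos and 0.0919 for Junb.

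The spread in P0 controls was shared by library in part. Control library 2 was below its group mean for 10 of the 10 genes and the lowest for 6, while library 6 was the highest for 6 genes (Fos, Fosb, Junb, Egr1, Npas4 and Nr4a1) and library 5 for the other 4 (Egr2, Egr3, Egr4 and Arc). Library 6 lay below the group mean for Egr2, Egr3 and Egr4 (by -0.28, -0.28 and -0.06). After subtracting group means, Egr2 and Egr3 followed the mean of the other members least over the P0 libraries (Pearson r -0.06 and 0.33). Over all 12580 genes tested at P0, libraries 2, 5 and 6 were the highest control for 25.4%, 19.0% and 24.4%. How many of all genes were lowest or below the mean in library 2 was not counted. The counts for library 2 can therefore not be called particular to the 10 genes. Averaged over the 10 genes, libraries 1, 2, 5 and 6 deviated from their group means by -0.15, -0.36, 0.23 and 0.29 on the log2 scale of CPM plus 1. In the other 3 groups this average stayed between -0.13 and 0.15. Library 6 was also the highest P0 control for 12 of 24 other rapid immediate-early genes, 10 of 17 late-response genes, 11 of 34 upstream genes, 5 of 12 stress genes and 3 of 10 partners and corepressors tested, against 24.4% of all genes tested. Library 2 was the highest for 5 of these 10 partners and corepressors. Control library 6 held the highest sum of 9 striatal marker genes of the 8 P0 libraries, at 278 CPM. The sum was 173 CPM in library 2, 203 in library 1 and 241 in library 5. In the P0 cKO libraries that sum was 137 to 193 CPM, and its part in the levels of these genes was not tested.

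**Figure D4:**
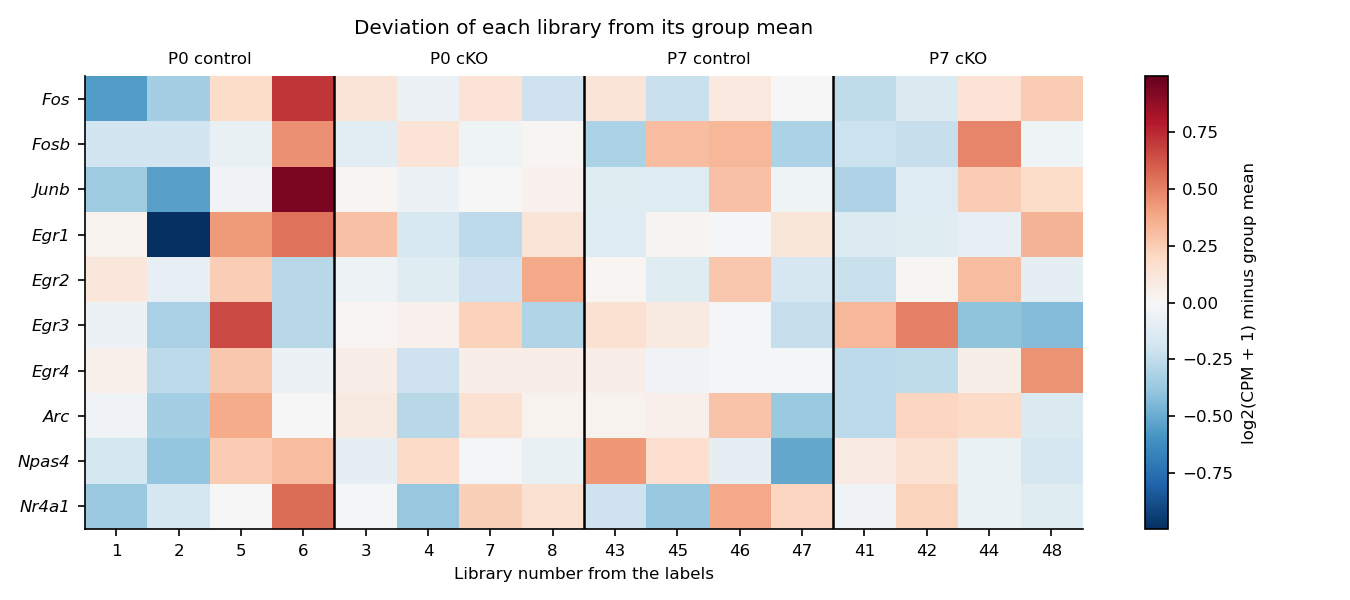
Deviation of each library from its group mean, in log2 of CPM plus 1, for the 10 immediate-early genes (rows) in the 16 libraries (columns, numbered as in the labels). The column of P0 control library 2 is blue in all 10 rows, and that of library 6 red in 7 of them.

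Between the ages 4 of the 9 genes tested differed in control cortex, beside 82.5% of all genes tested. Of all genes tested 35.1% rose and 47.3% fell (4723 and 6362 genes), and this order turned with scaling by medians of ratios, to 42.04% and 40.8% (5652 and 5483 genes). The same 4 genes did not overlap between the groups, against 74.4% of all genes. Of these, Egr4 met the filter only through P7 libraries. The nuclear receptor gene Nr4a1 stood at 11.8 to 23.3 CPM in P0 controls and at 3.83, 3.28, 6.24 and 5.46 CPM in P7 controls 43, 45, 46 and 47. It fell, with means of 16.04 ± 5.05 and 4.70 ± 1.38 CPM (SD, n = 4) and a log2 fold change of -1.57 (SE 0.19, limma adjusted p = 2.33e-07). Junb fell too, with means of 4.99 ± 3.10 and 1.83 ± 0.408 CPM and a log2 fold change of -0.97 (SE 0.23, limma adjusted p = 0.000554). Its highest P7 control, at 2.43 CPM, lay just under its lowest P0 control, at 2.77 CPM.

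Markers of several cell types also differed between the control ages. Summed over each list, astrocyte markers (8 genes) stood at 465 to 581 CPM at P0 and 3581 to 3875 at P7, and meningeal markers (7 genes) at 8.95 to 13.1 and 192 to 276 CPM. Excitatory neuron markers (8 genes) stood at 3227 to 3850 and 1761 to 2038 CPM. The genes of a list did not all move together. Of the excitatory neuron markers 2 rose and 5 fell, of the astrocyte markers 5 rose and 2 fell, and 7 meningeal markers rose. Their part in the age differences of genes was not tested.

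Egr3 and Egr4 rose with age. Egr3 had means of 1.81 ± 0.985 CPM at P0 and 4.27 ± 0.597 at P7, and a log2 fold change of 0.96 (SE 0.22, limma adjusted p = 0.000514). Egr4 had means of 0.345 ± 0.208 and 1.07 ± 0.0648 CPM, a ratio of 3.10 and a log2 fold change of 0.63 on the scale of CPM plus 1 (SE 0.16, limma adjusted p = 0.000869). No P0 library held 1 CPM of Egr4. It met the filter of this fit only through P7 libraries, where it is high, so this filter favoured a rise. The lowest P7 control of Egr4, at 1.02 CPM on 13 to 15 reads per library, lay above the highest P0 control, at 0.608 CPM on 11 reads. Without P0 control libraries 2 and 6 the 4 differences also passed, at -1.38 for Nr4a1, -0.77 for Junb, 0.66 for Egr3 and 0.47 for Egr4 (limma adjusted p at most 0.0248). For Fos, Egr1, Egr2, Arc and Npas4 the log2 fold changes were -0.28, 0.23, -0.21, -0.22 and 0.13, and their 95% intervals all held 0; Fos passed without P0 control library 1 (log2 fold change -0.47, limma adjusted p = 0.0343). Over all genes tested the median was -0.19, and scaling by medians of ratios moved it to 0.03 without changing a direction or call of the 4 genes.

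The wider pathway was described by lists of other rapid immediate-early genes (28 genes), late-response genes (18), upstream kinases and transcription factors (34), partners and corepressors (10) and stress genes (17). At P0 0 genes of these lists passed. Of 24 other rapid genes tested 8 had positive and 16 negative log2 fold changes (median -0.16), and of 17 late-response genes 8 were positive and 9 negative (median -0.17), beside 52.3% positive and a median of 0.01 over all genes. The difference with the smallest p was in Nr4a2, the nuclear receptor gene next to Nr4a1 in its family, which is known for dopamine neurons and marks deep cortical neurons and the claustrum. Controls 1, 2, 5 and 6 read 33.7, 35.6, 63.4 and 73.7 CPM of Nr4a2, and the knockouts 3, 4, 7 and 8 read 141, 108, 85.9 and 125. All cKO libraries lay above all controls. The means were 51.6 ± 20.04 and 115 ± 23.8 CPM (SD, n = 4), a log2 fold change of 1.2 (SE 0.23, 95% interval 0.70 to 1.70, limma adjusted p = 0.0552). It passed in 6 of 17 alternatives, among them DESeq2 (adjusted p = 0.000587) and the fit without control libraries 2 and 6 (limma adjusted p = 0.00642), and not with edgeR (adjusted p = 0.0761). Those 2 settings also called more of all genes, 429 with DESeq2 and 118 without the pair, against 32 in the main fit.

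Other P0 differences of the pathway were smaller and did not pass. Dusp6, a phosphatase that inactivates the ERK kinases, had 39.0 to 54.6 CPM in controls and 32.6 to 35.8 in cKO libraries, a log2 fold change of -0.40 (limma adjusted p = 0.142). Without control libraries 2 and 6 it was -0.25. Fosl2, a further AP-1 subunit, had a log2 fold change of -0.41 with and without that pair. The clock gene Per1 read 56.8, 102.7, 70.6 and 138 CPM in controls 1, 2, 5 and 6, and 47.9 to 71.3 in cKO libraries. Its log2 fold change was -0.53 (limma adjusted p = 0.245), and -0.0792 without control libraries 2 and 6. Scg2, which encodes the granule protein secretogranin II and is a late-response gene, had 33.9 to 93.8 CPM in controls and 22.4 to 41.2 in cKO libraries, at -0.93 (limma adjusted p = 0.133), and at -0.69 without that pair. The kinase gene Camk4, which carries the calcium signal to CREB in the nucleus, stood at 127 ± 16.6 and 174 ± 27.0 CPM (SD, n = 4), at 0.45 (limma adjusted p = 0.122).

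At P7 1 of 34 upstream genes and 1 of 12 stress genes tested fell, where 3.72% of all genes were called, and 0 genes of the other 3 lists passed. Camk2a, the alpha subunit of the calcium/calmodulin-dependent kinase of excitatory synapses, read 306, 349.8, 353 and 313 CPM in controls 43, 45, 46 and 47. The knockouts 41, 42, 44 and 48 read 250.004, 257, 282 and 223 CPM. The groups did not overlap, and Camk2a fell, with means of 330.3 ± 24.3 and 253 ± 23.9 CPM (SD, n = 4) and a log2 fold change of -0.39 (SE 0.07, limma adjusted p = 0.00386). In 1 fit over 16 libraries its adjusted p was 0.381. Hsph1, a chaperone of the HSP110 family, fell, with means of 288 ± 12.2 and 252 ± 8.97 CPM and a log2 fold change of -0.19 (SE 0.05, limma adjusted p = 0.0348); its adjusted p passed in 8 of 16 alternatives and reached 0.404. Of the 20 other rapid genes tested 12 had positive and 8 negative log2 fold changes (median 0.02). Dusp1, a phosphatase of the stress-activated kinases, had 2.21 to 3.48 CPM in controls and 3.69 to 4.97 in cKO libraries, at 0.42 (limma adjusted p = 0.174).

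**Figure D5:**
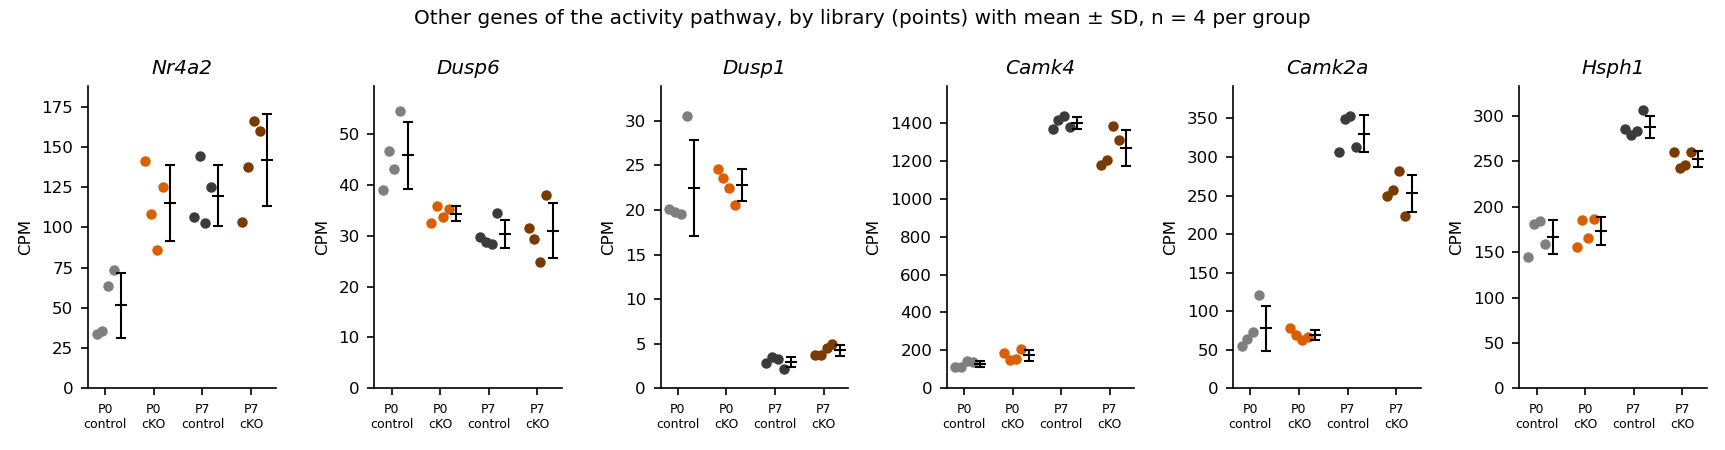
CPM of 6 further genes of the activity pathway in each library (points) with the group mean ± SD (n = 4), on axes that start at 0. Nr4a2 is higher in each P0 cKO library (85.9 to 141 CPM) than in each P0 control library (33.7 to 73.7 CPM), and Camk2a and Hsph1 are lower in each P7 cKO library than in each P7 control library.

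Over all genes tested 101 of 13444 (0.751%) had a genotype effect that differed between the ages. Of 25 other rapid, 18 late-response, 10 partner and corepressor and 12 stress genes tested 0 did. The only call in these lists, near the share of all genes, was 1 of 34 upstream genes tested, Camk4. Its log2 fold change was 0.45 at P0 and -0.14 at P7, where the means were 1399 ± 31.7 in controls and 1269 ± 95.4 CPM in cKO libraries (SD, n = 4). The difference was -0.59 (SE 0.14, limma adjusted p = 0.0491), and it passed in 8 of 24 alternatives. For Nr4a2 the difference was -0.97 (SE 0.30, limma adjusted p = 0.143).

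Between control ages 4 of 25 other rapid genes rose and 17 fell, with a median log2 fold change of -1.16, beside -0.19 over all genes. With medians of ratios, which moves the all-gene median to 0.03, 5 rose and 16 fell (median -0.96). Fitted on its own, P0 had 24 of these genes past the filter and P7 had 20. For those that met it only through P0 libraries, where they are high, this filter favoured a fall. Over all genes tested 82.5% were called, 35.1% higher and 47.3% lower. With medians of ratios 42.04% of all genes rose and 40.8% fell. Ier5 fell from 64.8 ± 6.98 to 8.58 ± 1.18 CPM, Dusp1 from 22.5 ± 5.38 to 2.94 ± 0.555 and the kinase gene Sik1, which restrains CREB coactivators, from 61.8 ± 6.83 to 17.3 ± 0.567 CPM (SD, n = 4). The AP-1 subunit gene Fosl1 had 199 to 405 reads in each P0 control library and 0, 0, 0 and 1 read in P7 control libraries 43, 45, 46 and 47. It met the filter of this fit only through P0 libraries, where it is high, so this filter favoured a fall. Nr4a2 rose to 119.9 ± 19.2 CPM at P7, a log2 fold change of 1.27 (SE 0.21, limma adjusted p = 1.46e-05), while its relative Nr4a1 fell.

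Among late-response genes 9 of 18 rose and 6 fell (10 and 5 with medians of ratios). Fitted on its own, P0 had 17 of these genes past the filter and P7 had 18. Over all genes tested 35.1% rose and 47.3% fell (42.04% and 40.8% with medians of ratios). Bdnf, the activity-dependent neurotrophin, rose from 1.68 ± 0.575 to 12.1 ± 0.556 CPM, Rasgrp1 from 14.8 ± 6.08 to 141 ± 24.3 and the prohormone convertase gene Pcsk1 from 1.66 ± 0.699 to 9.49 ± 1.84 CPM. Mmp9, a matrix protease, fell from 9.93 ± 1.89 to 0.884 ± 0.180 CPM (SD, n = 4). Of 34 upstream genes 16 rose and 12 fell (20 and 11 with medians of ratios), and Camk4 and Camk2a rose by 3.46 and 2.13 on the log2 scale. The transcription factor gene Mef2a rose from 7.15 ± 1.44 to 517 ± 14.9 CPM. In each of these genes age and sequencing centre cannot be told apart.

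The genes whose library pattern within groups was most like the mean of the 10, by Pearson r over the 8 libraries of an age after subtracting group means, were Atp6v1a, Gyg, Col24a1, Eef1a2 and Ednrb at P0 (r from 0.996 down to 0.980) and Hspa2, St5, Fan1, Errfi1 and Rp1 at P7 (r from 0.9749 down to 0.926). The gene ranked 100 still had r = 0.883 at P0 and 0.796 at P7. At P0 these values follow the same few control libraries, and with 8 libraries and 12572 genes ranked they describe these libraries only.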

How the data were processed

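RNA-seq of right-hemisphere mouse cortex gave 16 libraries in 4 groups of 4, mapped from the labels. The authors deposited CPM values, per the submitters' processing notes after work with STAR, HTSeq and edgeR on the builds mm10 and GRCm38; versions, settings and strandedness were not stated. CPM steps gave whole reads for 100% of values (tolerance 0.01 read).

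Each age was fitted on its own with limma 3.58.1 (R 4.3.3) on log2(CPM + 1), eBayes with trend and Benjamini-Hochberg adjustment over all genes that reached 1 CPM in 4 or more libraries of the fit; a call is an adjusted p under 0.05. The age difference and the difference between the genotype effects came from 1 fit over 16 libraries. Genes below the filter were compared by an exact permutation test. No pair of libraries held identical values (0 found).

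The 10 genes, all gene lists and the naming rule were chosen with earlier results of these data known. Named are the 10 genes, Foxp1, the up to 4 genes of each list with the smallest p in a comparison plus those called, and the 5 genes most like the 10 in each age. Positions and exon lengths come from GENCODE M21 (GRCm38), promoter sequences from RefSeq (GRCm38.p6). Alternatives were edgeR 4.0.16 and DESeq2 1.42.0 on the recovered reads, a pseudocount of 0.1 CPM, no filter, a minimum mean of 5 CPM, medians of ratios, array weights, 1 fit over all libraries, leaving out each library, and leaving out P0 control libraries 2 and 6 (for the age and interaction contrasts added after seeing the data). The fits were tested on simulated data.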

Additional observations from a re-analysis of the deposited data

Results flagged for a closer look

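In 3 of the 40 sets of 4 libraries (10 genes in 4 groups) 1 library lay far from its group. For normally spread values chance alone does so in about 1 in 20 sets. That rate need not hold for Fosb and Egr4, which had few reads here. Fosb had 1.002 CPM in P0 control library 6 (18 reads), against 5 to 7 reads in the other P0 controls. Egr1 had 22.6 CPM in P7 cKO library 48, against 16.04 to 16.7 in the other P7 cKO libraries. Egr4 had 0.0554 CPM in P0 cKO library 4, which is 1 read, against 5 reads in each of the other P0 cKO libraries.

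The genotype effect on Camk4 differed between the ages, by -0.59 on the log2 scale (limma adjusted p = 0.0491), as tested in 1 fit over 16 libraries. Over the alternatives that adjusted p ran from 0.0121 to 0.121.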

How the results depend on the processing

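For the 10 genes, none was called between genotypes under any alternative except Egr1 at P0 in 1 fit over all libraries (1 gene called), and the 4 age calls passed in every alternative that tested them; with a mean of at least 5 CPM 1 call was left, since fewer genes were tested. Counts over all genes moved more. At P0 the 32 calls became 794 in 1 fit over all libraries, 429 with DESeq2, 124 with array weights, 7 with no filter and 118 without control libraries 2 and 6, and 4 (without cKO library 3 or 8) to 136 (without control library 5) with each library left out. At P7 the 477 calls (214 higher, 263 lower) became 175 in 1 fit over all libraries and 281 (without control library 46) to 496 with each library left out; medians of ratios gave 155 higher and 303 lower. The 101 interaction calls became 291 with DESeq2, 194 with array weights, 54 with no filter, 175 without P0 control libraries 2 and 6, and 45 (without P0 cKO library 3) to 361 (without P0 control library 5) with each library left out. The cause was not tested.

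Log2 fold changes near 0 changed sign. At P0, leaving out control libraries 2 and 6 gave -0.12 for Egr3, 0.0503 for Fos, 0.0461 for Junb, 0.0244 for Nr4a1, 0.0943 for Hspa5 and 0.12 for Jund, and array weights gave -0.0804 for Egr3 and -0.062 for Npas4. Leaving out 1 library at P0 gave -0.17 to 0.0602 for Arc, -0.20 to 0.007 for Egr2, -0.32 to 0.10 for Fos, -0.33 to 0.16 for Junb, -0.0853 to 0.14 for Npas4 and -0.29 to 0.021 for Nr4a1. At P7, array weights gave -0.0239 for Junb, and leaving out 1 library gave -0.0212 to 0.20 for Arc and -0.0052 to 0.23 for Egr4. For the interaction, the pseudocount of 0.1 gave -0.0304 for Egr3, leaving out libraries 2 and 6 gave -0.0099 for Jund, and leaving out 1 library gave -0.17 to 0.19 for Egr3, -0.0569 to 0.44 for Junb and -0.0288 to 0.29 for Npas4. For age, leaving out libraries 2 and 6 gave -0.0034 for Egr1, and leaving out 1 library gave -0.11 to 0.41 for Egr1 and -0.0196 to 0.29 for Npas4.

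The labels state no pairing of control and cKO libraries, so no paired analysis was run. Depth limits Fosb and Egr4 at P0 and Fosb at P7 most, at 0 to 18 reads per library.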

Other observations

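Between control ages, 2 of the 10 partners and corepressors rose and 6 fell (3 and 6 with medians of ratios). Of all genes tested 35.1% rose and 47.3% fell (42.04% and 40.8% with medians of ratios), so these counts stand near the 82.5% of all genes that were called. The AP-1 partner gene Jund fell from 131 ± 50.4 CPM at P0 to 17.8 ± 1.73 at P7 (SD, n = 4, limma adjusted p = 6.5e-12). The retinoid X receptor gene Rxrb, whose product pairs with nuclear receptors, fell from 77.8 ± 8.85 to 6.53 ± 0.401 CPM, and its relative Rxra from 17.5 ± 2.01 to 3.34 ± 0.483 CPM. Arnt2, the dimer partner of Npas4, fell from 517.5 ± 34.2 to 219 ± 18.5 CPM.

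Of 12 stress genes tested, 4 rose and 7 fell between control ages (5 and 6 with medians of ratios), also near the shares over all genes. The chaperone genes Hsp90aa1 and Hspa8 rose, from 185 ± 4.85 to 1208 ± 27.1 CPM and from 175 ± 16.4 to 546 ± 37.3 CPM (SD, n = 4). Fkbp5, a glucocorticoid-induced cochaperone, fell from 56.7 ± 4.06 to 25.1 ± 1.97 CPM, and Ddit3, a factor of the unfolded protein response, from 15.0005 ± 1.99 to 3.36 ± 0.602 CPM.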
